A study of Rattus rattus with 18 samples.

Results

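The 6 arrays described here compare the core and the peri region of the brain in the 3 rats subjected to transient middle cerebral artery occlusion (tMCAO). The members were chosen by sample title: 3 arrays are titled stroke core and 3 periischemic, and the rat number in the title pairs them, so that these are 6 of the 18 arrays and 3 of the 9 rats in the series. All rats were Sprague-Dawley, no allele or transgene is named, and the ages are not given in the sources used here. The other arrays come from 3 sham-operated rats and from 3 rats labelled remote limb postconditioning (PostC), again with 1 core and 1 peri array each, and whether the PostC rats also underwent tMCAO is not stated. In tMCAO a filament is advanced to close the middle cerebral artery and is later withdrawn, so that ischemia is followed by reperfusion, whereas sham-operated rats undergo the surgery without the occlusion. The study's methods give 2 times of sacrifice for this model, both within a day of reperfusion, and which of them applies to the arrays is not stated.

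The core of an infarct is the territory that loses nearly all of its blood flow, and the tissue around it, often called the penumbra, keeps some flow from neighbouring vessels and can survive for longer. By the labels, core tissue came from temporo-parietal cortex and peri tissue from striatum, whereas the study's methods assign these names the other way round, so core and peri are used here without a tissue. In either reading the 2 regions are different parts of the brain also without ischemia, and the same difference in sham-operated rats is therefore given beside the main results. MicroRNAs (miRNAs) are short RNAs cut from either arm of a hairpin precursor, the 5p or the 3p arm. Loaded into an Argonaute protein, they bind messenger RNAs mainly through bases 2 to 8, the seed, and reduce translation or stability of those messengers. Several are made largely by 1 cell type, such as miR-124 and miR-153 in neurons or miR-223 in myeloid blood cells, so that a tissue sample reports its cells as well as their state. In such a sample more or fewer cells of a type and more or less RNA per cell cannot be told apart.

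Of 532 miRNAs tested, 7 differed between core and peri in tMCAO rats, and all 7 were higher in core. Their probe targets are printed here because the main result rests on them, as the array files give them, from 5′ to 3′ and with the seed in capitals.

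miR-3473: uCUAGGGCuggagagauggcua
miR-6215: uUUAGGGUugcagagccagg
miR-149-3p: gGGACGGGggcggugcug
miR-1224: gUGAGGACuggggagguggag
miR-762: gCGGGGCUagggccggga
miR-155-5p: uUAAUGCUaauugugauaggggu
miR-664-2-5p: cUGGCUGGggaaaaugauugg
miR-664-1-5p: cUGGCUGGggaaaaagauugg

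The last, miR-664-1-5p, was not among the 7 and is shown because its target is 1 edit away from that of miR-664-2-5p. The 7 have 7 different seeds, and apart from miR-664-2-5p none of them shares its seed with another probe on the array. Runs of G recur among them: 5 of the 7 targets hold at least 4 G in a row, and so do 38 of the 532 tested, a length chosen after the values were seen.

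A second set was lower in core, with no member past the adjusted threshold. Printed from it are miR-153-3p, which had the largest difference, both arms of miR-9a, and miR-29c-3p with the 2 other probes that share its seed, of which miR-29b-3p was not lower in every rat.

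miR-153-3p: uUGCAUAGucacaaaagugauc
miR-9a-5p: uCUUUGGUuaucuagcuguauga
miR-9a-3p: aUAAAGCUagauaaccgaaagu
miR-29a-3p: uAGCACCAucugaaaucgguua
miR-29b-3p: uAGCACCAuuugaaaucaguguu
miR-29c-3p: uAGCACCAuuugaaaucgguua

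The targets of miR-29a-3p and miR-29c-3p are 1 edit apart, so that their probes may share signal.

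On each array 761 miRNAs were probed, with 4 spots per probe, and values are normalized log2 intensities, so that a difference of 1 is a doubling of the signal. Detection of a miRNA required the median of its spots to lie above that of the array's empty spots by over 3 scaled median absolute deviations of the latter. By this limit the core arrays of tMCAO rats 1, 2 and 3 detected 447, 348 and 233 miRNAs and their peri arrays 230, 213 and 189, so that core was ahead in every rat. The limit was higher on the peri arrays, on average 255 against 144 intensity units, and when the limit was taken instead from the miRNA spots, the 25% with the lowest signal, the core minus peri count was -10, 27 and 17 miRNAs. Control probes for 5S ribosomal RNA were brighter in core than in peri by 1.69, 3.05 and 1.99 times in tMCAO rats 1, 2 and 3, and by 1.50, 0.908 and 0.793 times in sham-operated rats. The part of detection and of the 5S signal in the differences below was not tested. Between rats, profiles correlated across miRNAs at 0.932 to 0.958 in tMCAO core and 0.966 to 0.978 in tMCAO peri, and between core and peri of a rat at 0.904 to 0.940 (miRNAs are not independent replicates).

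Core and peri were compared within each rat, by the difference of the paired arrays. At an adjusted p under 0.05 in limma, 7 of 532 miRNAs were higher in core (1.32%) and 0 were lower. At an unadjusted p under 0.05 there were 52 (9.77%), of which 39 (7.33%) were higher in core and 13 (2.44%) lower. For all 7 the 3 core arrays lay above the 3 peri arrays without overlap, as they did for 61 of the 532 (11.5%), while the reverse held for 73 (13.7%). Core was above peri in all 3 rats for 101 of the 532 (19%) and below it for 131 (24.6%). On the authors' deposited normalized intensities the adjusted split was 5 higher and 1 lower, the lower one being miR-679, and after removal of a GC trend it was 7 higher and 1 lower, the lower one being miR-124-3p. Without tMCAO rat 3 there were 12 calls, all higher, and without PostC rat 3, through the shared estimate of the spread, 17 (13 higher, 4 lower). Median scaling gave 14 calls, all higher, a fit of the 3 tMCAO rats alone 35 (25 higher, 10 lower) and the methods' t-test run on the pairs 0. In sham-operated rats 0 miRNAs passed the adjusted threshold between core and peri by limma, and 30 (5.64%) had an unadjusted p under 0.05, 24 of them higher (4.51%) and 6 lower (1.13%). The median difference over all tested miRNAs was -0.03 in tMCAO rats. With median scaling of the arrays in place of cyclic loess it was 0.11, so every difference is relative to the bulk of the miRNAs on the array. Single bright miRNAs moved further, such as miR-128-3p from -0.16 to 0.60 and let-7b-5p from 0.84 to 1.58. The dim miR-155-5p moved little, from 1.44 to 1.37.

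**Figure D1:**
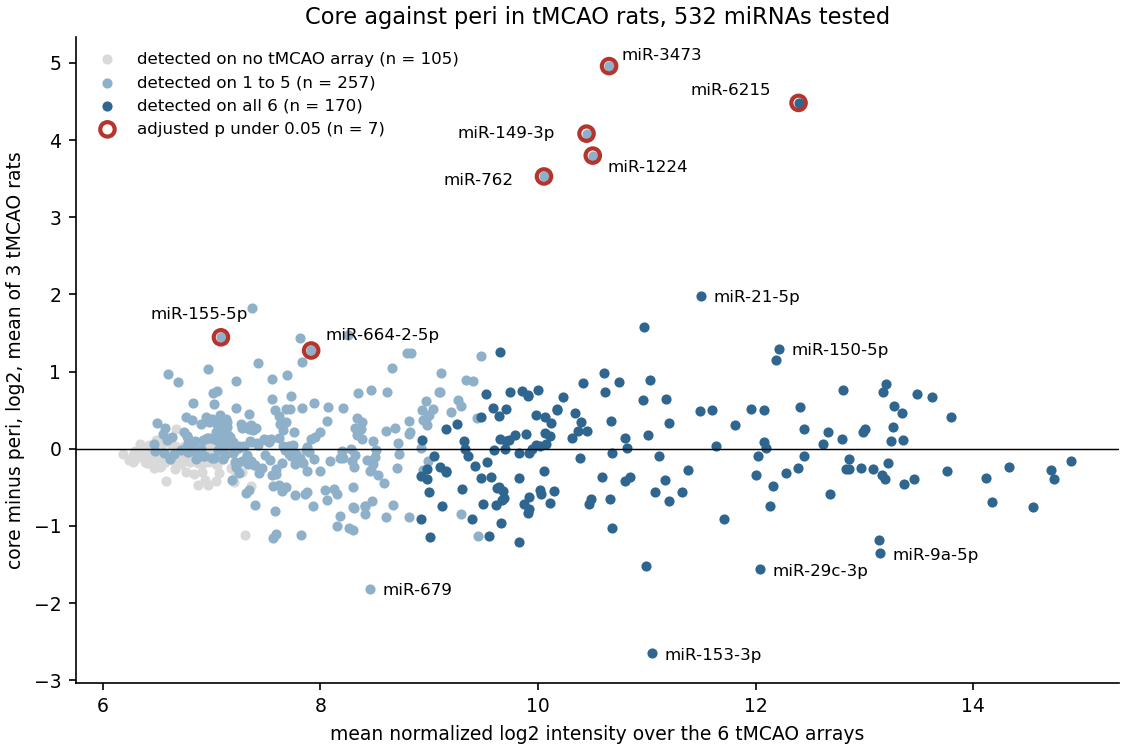
Each point is 1 of the 532 miRNAs tested, placed by its mean normalized log2 intensity over the 6 tMCAO arrays (x axis) and its core minus peri difference on the log2 scale, averaged over 3 tMCAO rats (y axis). Colours give the number of tMCAO arrays on which it was detected, and red rings mark the 7 miRNAs past the adjusted threshold, which all lie above 0.

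The largest difference was that of miR-3473. Its normalized log2 intensity was 12.79, 13.83 and 12.78 in the core of tMCAO rats 1, 2 and 3, and 7.86, 8.40 and 8.26 in their peri region. All 3 core arrays lay far above all 3 peri arrays, and the gap was present in every rat, at 4.93, 5.43 and 4.52. The mean difference was 4.96 (SE 0.68, adjusted p = 0.00437 in limma), and with background subtraction it was 8.49, so its size depends on the background correction. As miR-3473 was not well above background on any of the 3 peri arrays, only a bound can be given for the linear fold change, at least 27.1-fold higher in core, and the other bounds below were set in the same way against the lowest detectable signal of each peri array. In sham-operated rats core also lay above peri, at 10.36, 10.22 and 10.55 against 9.05, 9.16 and 8.29, a mean difference of 1.54. The core values of tMCAO rats were thus above all sham core values, whereas in peri the 2 conditions overlapped.

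miR-6215 was the only 1 of the 7 to be detected on all 6 tMCAO arrays. It measured 14.72, 14.89 and 14.29 in core and 8.90, 10.73 and 10.83 in peri, a mean difference of 4.48 (SE 0.66, adjusted p = 0.00449 in limma), or 22.3-fold. The 3 core arrays were close together and the spread lay in peri, where rat 1 was the lowest and gave the largest within-rat difference, 5.82. Without rat 1 the mean difference was 3.81 and no longer passed (adjusted p = 0.0715 in limma), nor did it pass on the deposited table with a floor of 50 (4.40, adjusted p = 0.0523 in limma) or by the methods' t-test (adjusted p = 0.117). On the deposited table without that floor it passed (4.40, adjusted p = 0.0162 in limma). In sham-operated rats core and peri differed little, with 11.16, 12.66 and 11.26 in core and 11.10, 11.69 and 11.25 in peri, a mean difference of 0.34. In the deposited normalized table the same miRNA had 23998 ± 2721 units in tMCAO core and 1324 ± 747 units in tMCAO peri (SD, n = 3).

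miR-149-3p, from the 3p arm of its hairpin, and miR-762 have the targets richest in G and C among the 7, both at 83.3%. miR-149-3p measured 12.03, 12.81 and 12.62 in core and 8.42, 8.21 and 8.58 in peri, a difference of 4.08 (SE 0.52, adjusted p = 0.00437 in limma), and it was detected on all 3 core arrays and on 1 of the 3 peri arrays. Its difference was 3.21 after the GC correction and 5.82 with background subtraction. miR-762 measured 11.08, 11.63 and 12.75 in core and 8.30, 8.22 and 8.36 in peri, a difference of 3.53 (SE 0.50, adjusted p = 0.00437 in limma), which was 2.66 after the GC correction and did not pass by the methods' t-test (adjusted p = 0.117). With background subtraction the difference was 5.85. miR-762 was not well above background in peri, and the fold change was at least 9.91-fold. For both miRNAs the peri arrays lay within less than 0.5 of each other while the core arrays stood more than 2 above them. Sham-operated rats showed the same direction in all 3 rats with smaller means, 1.28 for miR-149-3p and 1.19 for miR-762.

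miR-1224 is a mirtron, a miRNA whose precursor is a short spliced intron. It measured 11.99, 12.77 and 12.45 in core and 8.60, 8.47 and 8.75 in peri, a difference of 3.80 (SE 0.70, adjusted p = 0.0219 in limma), with detection on 3 core arrays and 1 peri array. This was the call closest to the threshold among the 7, and it was lost when any 1 of the tMCAO rats was left out, with differences of 3.55 or more and adjusted p from 0.101 to 0.204 in limma. It was lost too on the deposited normalized intensities (4.25, adjusted p = 0.0572 in limma). In sham-operated rats the difference was 0.34, 2.01 and 0.05 in rats 1, 2 and 3, so that 1 rat gave most of the mean of 0.80.

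miR-155-5p and miR-664-2-5p were dim, and their differences on the normalized scale were the smallest of the 7 and even across rats. miR-155-5p, which macrophages and microglia induce upon inflammatory activation, measured 7.66, 7.97 and 7.80 in core and 6.52, 6.35 and 6.22 in peri, a difference of 1.44 (SE 0.19, adjusted p = 0.00437 in limma). It was detected on 2 of the 3 core arrays and on 0 peri arrays, and since its core signal did not exceed the lowest detectable signal of the peri arrays, no fold change is given. With plain background subtraction its difference was 3.51 and did not pass (adjusted p = 0.0977 in limma). On the deposited table, where its peri mean was near 0, the difference was 7.06 (adjusted p = 0.00231 in limma), and 1.42 with a floor of 50 (0.00384). In sham-operated rats it lay at 6.06 to 6.39 in both regions and was detected on 0 of 6 arrays. miR-664-2-5p, from a precursor that overlaps a small nucleolar RNA, measured 8.31, 8.72 and 8.63 in core and 7.28, 7.37 and 7.19 in peri. The difference was 1.27 (SE 0.19, adjusted p = 0.00449 in limma), with detection on 3 core and 0 peri arrays and a fold change of at least 1.30-fold. In sham-operated rats it differed by 0.01. Leaving out tMCAO rat 2 ended this call (difference 1.24, adjusted p = 0.0588 in limma). So did background subtraction (2.60, adjusted p = 0.760), the deposited table (1.87, adjusted p = 0.0933) and cyclic loess over the 6 tMCAO arrays (adjusted p = 0.171), all in limma, and the methods' t-test (adjusted p = 0.0595). With a floor of 50 on the deposited table miR-664-2-5p passed (1.87, adjusted p = 0.00127 in limma). Its near-identical neighbour miR-664-1-5p, with 8.14, 7.74 and 7.74 in core and 7.55, 8.30 and 7.91 in peri, did not follow it, its difference being -0.04 (SE 0.62, adjusted p = 0.992 in limma).

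**Figure D2:**
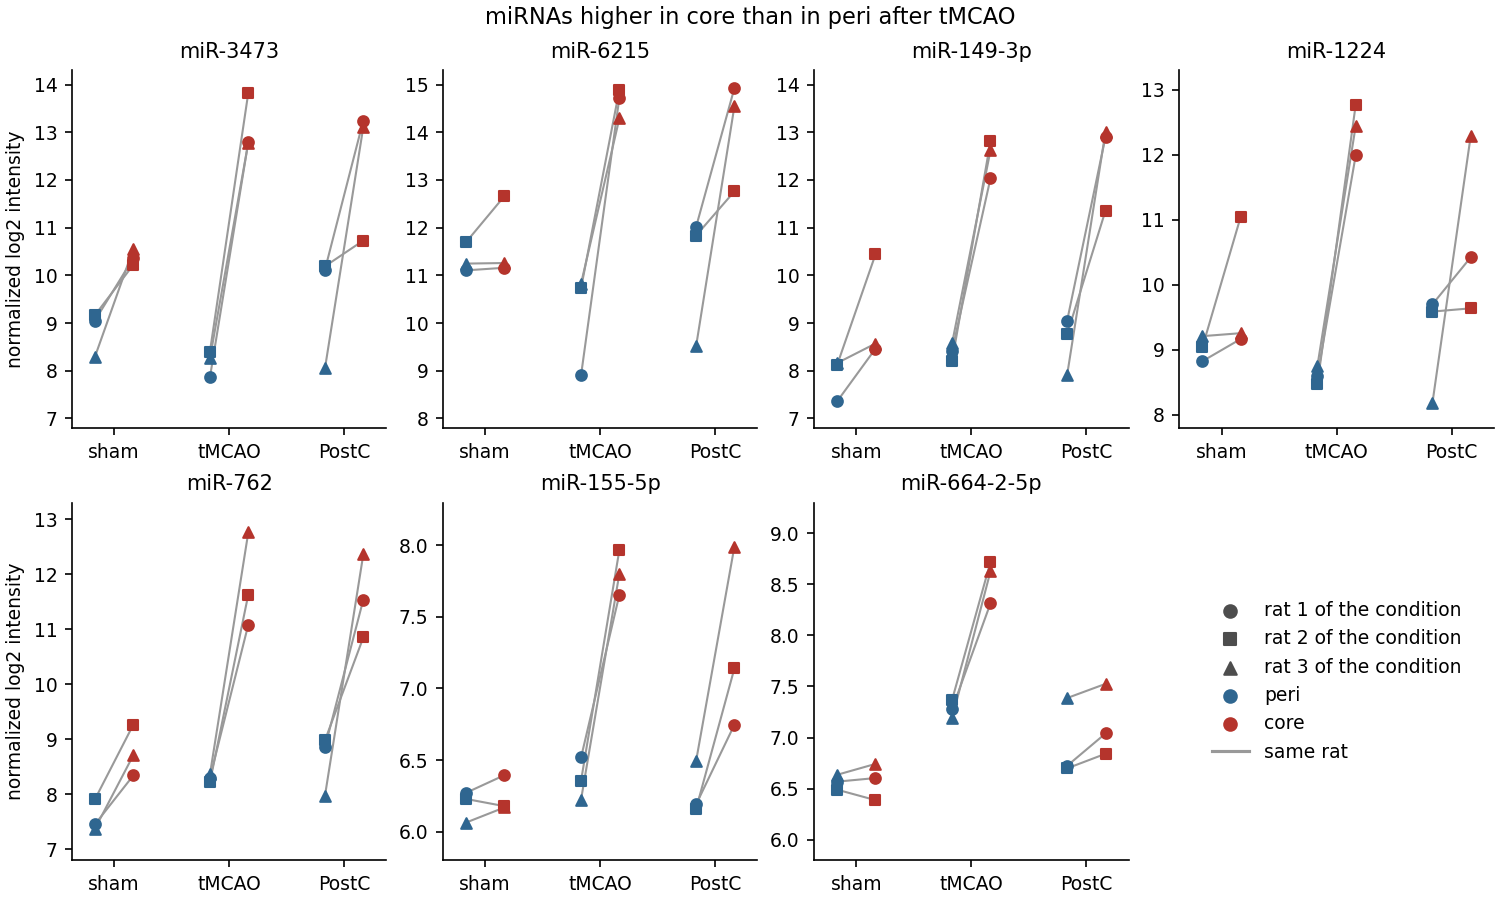
Normalized log2 intensity (y axis, a range of its own for each panel) of the 7 miRNAs higher in core after tMCAO, on all 18 arrays. Blue symbols are peri and red symbols core, a grey line joins the arrays of 1 rat, and the 3 shapes are the 3 rats of a condition. In the tMCAO rats all red symbols lie above all blue ones in every panel.

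To ask whether these regional differences were larger after occlusion than without it, the mean within-rat difference of the tMCAO rats was set against that of the sham-operated ones. In limma 0 of 532 miRNAs passed the adjusted threshold (0%), and 47 (8.83%) had an unadjusted p under 0.05, 21 higher (3.95%) and 26 lower (4.89%). All 7 miRNAs had a larger difference in tMCAO rats, by 1.26 for miR-664-2-5p to 4.14 for miR-6215, with unadjusted p from 0.000411 to 0.0126 and adjusted p from 0.216 to 0.352 in limma. The 7 were chosen for their difference in these same tMCAO rats, which is also 1 term of this comparison. Their direction, their unadjusted p and the intervals below were thus favoured in advance. For miR-6215 the 95% interval of the excess over sham was 2.05 to 6.23, and for miR-155-5p 0.79 to 1.98. An excess over sham is therefore given as a size and not as a call. It passed for 5 of the 7 (miR-1224, miR-155-5p, miR-3473, miR-6215 and miR-664-2-5p) when PostC rat 3, whose core and peri arrays differed most of all rats, was left out of the shared estimate of the spread. Leaving out any other rat gave 0 calls. With only the tMCAO and sham-operated rats in the fit miR-155-5p, miR-3473, miR-6215 and miR-664-2-5p passed (adjusted p from 0.0121 to 0.0484 in limma).

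The PostC rats showed part of the same set. At the same threshold 4 of 532 miRNAs were higher in core than in peri (0.752%) and 0 lower, while 50 (9.4%) had an unadjusted p under 0.05, 28 higher (5.26%) and 22 lower (4.14%). Of the 4, 3, miR-149-3p, miR-155-5p and miR-762, were also among the 7 of the tMCAO rats. Their differences in PostC rats were 3.84, 1.01 and 2.98 (adjusted p = 0.0119, 0.0421 and 0.0235 in limma). The calls of the PostC rats depended on the shared spread: 0 remained when only the PostC rats entered the fit, 0 by the methods' t-test, and 1 when sham rat 1 or sham rat 3 was left out. The fourth, miR-208a-5p, differed by 2.84 in PostC rats (adjusted p = 0.0172 in limma) and by 1.43 in tMCAO rats (SE 0.43, adjusted p = 0.166), where it was detected on 3 core and 0 peri arrays. In tMCAO rats it passed with only those rats in the fit (adjusted p = 0.0063 in limma) and without PostC rat 3 (0.00306). Among the 4 of the 7 that were not called in PostC rats, miR-3473 differed by 3.13, 0.54 and 5.06, miR-6215 by 2.91, 0.93 and 5.04 and miR-1224 by 0.72, 0.05 and 4.11 in PostC rats 1, 2 and 3, so that in each case rat 2 had the smallest difference and rat 3 the largest. miR-664-2-5p differed by 0.32, 0.14 and 0.14. The PostC and tMCAO comparisons use different arrays but share the estimate of the spread, and the difference between them was not tested.

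On the lower side 8 miRNAs are described, the largest differences among those with an unadjusted p under 0.05, the same sign in all 3 tMCAO rats and detection on at least 2 peri arrays. None passed the adjusted threshold with the spread shared by all 9 rats. When only the tMCAO rats entered the fit 5 of the 8 did, miR-153-3p (adjusted p = 0.00173 in limma), miR-679 (0.00598), miR-9a-5p (0.0133), miR-9a-3p (0.0189) and miR-29c-3p (0.0488), and without PostC rat 3 miR-679 (0.0451) and miR-9a-5p (0.0485) did. The call of miR-679 was also made on the deposited table (-2.53, adjusted p = 0.0423 in limma). Core and peri overlapped for miR-29c-3p, miR-582-5p and miR-466d. With median scaling all 8 stayed below 0 but were smaller, -1.94 for miR-153-3p, -1.28 for miR-679, -0.82 for miR-29c-3p, -0.60 for both miR-9a-5p and miR-582-5p, -0.43 for miR-9a-3p, -0.41 for miR-872-5p and -0.32 for miR-466d. miR-153-3p, a neuron-enriched miRNA that targets alpha-synuclein, had the largest difference. It measured 10.73, 8.03 and 10.40 in core and 12.01, 12.61 and 12.50 in peri, a difference of -2.65 (SE 0.77, adjusted p = 0.150 in limma). Peri was even across rats and core was not, with rat 2 far below the others, and without rat 2 the difference was -1.69. In sham-operated rats it was 1.95, -0.14 and -0.47, with no common direction.

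The 2 arms of miR-9a, made in neural progenitors and neurons, moved in the same way. miR-9a-5p measured 13.12, 11.08 and 13.20 in core and 13.61, 13.62 and 14.25 in peri, a difference of -1.36 (SE 0.49, adjusted p = 0.321 in limma). miR-9a-3p measured 12.94, 11.54 and 13.14 in core and 13.46, 13.72 and 14.00 in peri, a difference of -1.19 (SE 0.33, adjusted p = 0.149 in limma). Core and peri did not overlap for either arm, rat 2 again had the lowest core value, and without it the differences were -0.77 and -0.69. In sham-operated rats miR-9a-5p differed by 0.02. For miR-9a-3p the sham-operated rats pointed the other way in all 3 rats, with a mean of 0.77, and the difference between the conditions was -1.96 (SE 0.46, unadjusted p = 0.0017, adjusted p = 0.226 in limma).

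miR-29c-3p belongs to the miR-29 family, which represses collagens and DNA methyltransferases. It measured 12.00, 9.33 and 12.46 in core and 12.31, 12.95 and 13.20 in peri, a difference of -1.56 (SE 0.63, adjusted p = 0.412 in limma) that was -0.53 without rat 2. Its sham values ran the other way, with 13.66, 14.85 and 13.16 in core and 12.42, 13.46 and 12.62 in peri. miR-29a-3p, 1 of the 5 brightest probes on the tMCAO arrays, measured 14.37, 13.82 and 14.32 in core and 15.02, 14.96 and 14.78 in peri, a difference of -0.75 (SE 0.19, adjusted p = 0.101 in limma) that turned to 0.01 with median scaling and passed with only the tMCAO rats in the fit (adjusted p = 0.0217) or without PostC rat 3 (0.0451). miR-29b-3p had the same seed and a mean difference of -0.56, but of 0.31, -1.98 and -0.01 in rats 1, 2 and 3, so that rat 2 alone set its direction, and it too turned above 0, to 0.10, with median scaling. Of the 7 probes of the family on the array, 6 were tested, 2 were lower at an unadjusted p under 0.05, against 2.44% of all tested, and 0 at the adjusted one, and all 6 means were below 0 with a median of -0.61, against -0.03 over all tested miRNAs. With median scaling the median of the family was -0.07 and 3 of 6 lay above 0. In sham-operated rats the median of the same 6 was 0.62.

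Among the other lower miRNAs, miR-679 was the one with the smallest adjusted p. It measured 7.94, 7.62 and 7.10 in core and 9.39, 8.95 and 9.77 in peri, a difference of -1.82 (SE 0.44, adjusted p = 0.100 in limma). It was detected on 2 core and 3 peri arrays and was lower in core in all 3 sham-operated rats too, with a mean of -0.99. miR-582-5p, miR-872-5p and miR-466d, each detected on all 6 arrays, differed by -1.14, -0.96 and -0.91 with adjusted p from 0.412 to 0.503 in limma, and by 0.92, 0.06 and -0.41 in sham-operated rats. Of the 13 miRNAs that were lower at an unadjusted p under 0.05, 10 were detected on all 6 tMCAO arrays, as were 14 of the 39 that were higher and 170 of the 532 tested. Detection on 0 peri arrays held for 21 of the 39 and for 285 of the 532, a similar share.

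**Figure D3:**
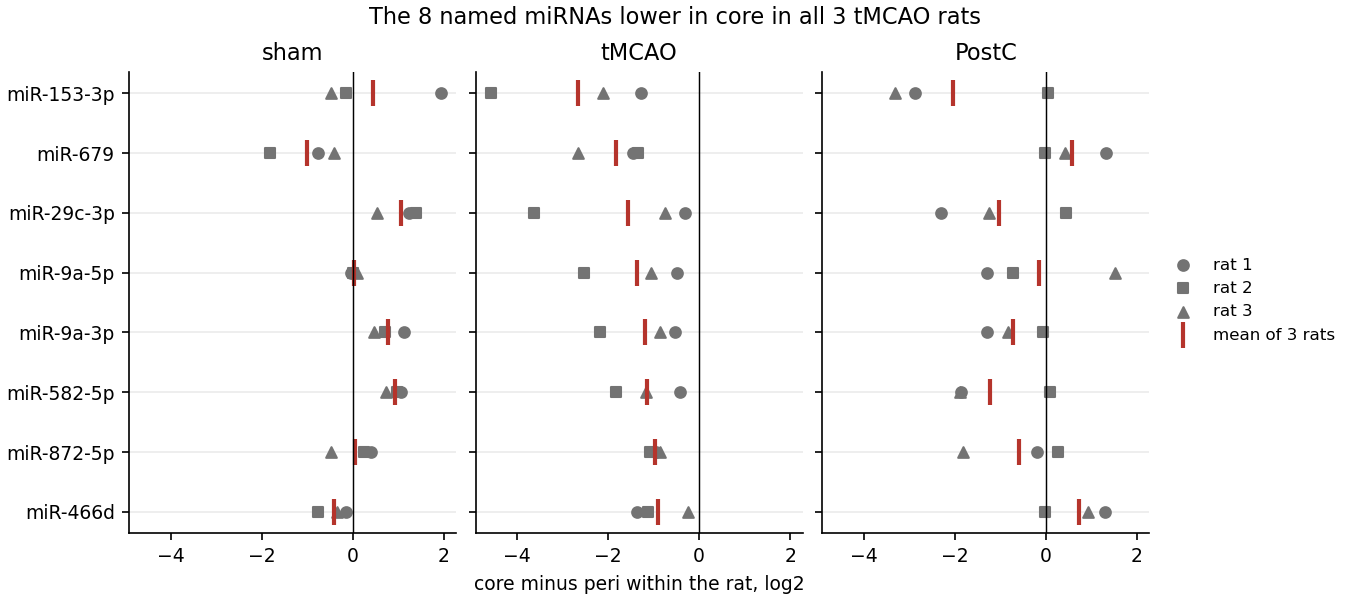
Core minus peri difference within each rat on the log2 scale (x axis) for the 8 miRNAs described as lower in core after tMCAO, in sham, tMCAO and PostC rats. Grey symbols are single rats and red bars the mean of 3 rats. All tMCAO symbols lie below 0, with rat 2 farthest from 0 for miR-153-3p, miR-29c-3p, both arms of miR-9a and miR-582-5p.

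The most clearly separated group by cell type was that of leukocytes and microglia. Of its 7 miRNAs 6 were tested, 1 was higher in core at the adjusted threshold (miR-155-5p), 4 were higher at an unadjusted p under 0.05 and 0 were lower, against 1.32%, 7.33% and 2.44% of all tested. All 6 means were above 0, as were 248 of the 532 tested, with a median difference of 1.37, against -0.03 over all tested miRNAs, and 5 of the 6 were higher in core in all 3 rats, against 19% of all tested. The summed linear signal of the 6 was 14433 to 16581 units in core and 4640 to 6868 units in peri, without overlap. Most of this sum came from miR-150-5p and miR-21-5p, and the latter is not particular to these cells. The median was 0.05 in sham-operated and 0.94 in PostC rats, and across 4 other ways of background correction and scaling and a GC correction it lay between 1.31 and 1.92 in tMCAO rats.

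The members of this group were not alike. miR-150-5p, a lymphocyte miRNA, measured 12.72, 13.36 and 12.51 in core and 11.53, 11.90 and 11.29 in peri, a difference of 1.29 (SE 0.29, adjusted p = 0.0833 in limma), and in sham-operated rats it differed by 0.02. It passed with no replicate block (adjusted p = 0.0292), with the rat as a random block (0.0367), with median scaling (2.01, 0.00764), with cyclic loess over the 6 tMCAO arrays (0.0421), with only the tMCAO rats in the fit (0.0063) and without PostC rat 3 (0.0103), all in limma. miR-223-3p, a myeloid miRNA, measured 9.23, 8.71 and 6.92 in core and 6.79, 6.72 and 5.88 in peri, a difference of 1.83 (SE 0.45, adjusted p = 0.100 in limma), with detection on 2 core and 0 peri arrays and a fold change of at least 1.09-fold, and in sham-operated rats it differed by 0.63. It passed with quantile normalization (2.30, adjusted p = 0.0194), median scaling (0.0387), cyclic loess over the 6 tMCAO arrays (0.0488), only the tMCAO rats in the fit (0.000194) and without PostC rat 3 (0.00273), all in limma. Both were higher in every rat, by an even amount in miR-150-5p and by an uneven one in miR-223-3p.

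miR-21-5p, which reactive astrocytes and many injured tissues also make, measured 12.93, 11.80 and 12.76 in core and 10.13, 11.13 and 10.28 in peri. Its difference was 1.98 (SE 0.58, adjusted p = 0.155 in limma), and it passed with median scaling (2.70, adjusted p = 0.0301 in limma) and with only the tMCAO rats in the fit (0.00357). All 3 sham-operated rats had less in core than in peri, by 1.55, 0.75 and 0.20 on the log2 scale, so the difference between conditions was 2.82 (SE 0.82, unadjusted p = 0.00655, adjusted p = 0.352 in limma). miR-146a-5p, a feedback inhibitor of innate immune signalling, differed by 0.73 (adjusted p = 0.516 in limma) and by 0.03 in sham-operated rats. miR-142-5p, a marker of blood-derived cells, was detected on 0 of the 6 tMCAO arrays and differed by 0.07, and miR-142-3p was not tested because too few arrays detected it.

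Red blood cell miRNAs gave no call with the spread shared by all 9 rats, but miR-486 passed with only the tMCAO rats in the fit (adjusted p = 0.0133 in limma) and without PostC rat 1 (0.0193) or PostC rat 3 (0.0451). Of 3, miR-144-3p was not tested, miR-451-5p differed by 0.64 (SE 0.51, adjusted p = 0.750 in limma) and miR-486 by 1.47 (SE 0.42, adjusted p = 0.149), both higher in core in all 3 tMCAO rats. The median of the pair was 1.06 in tMCAO and 0.69 in sham-operated rats, where both were higher in core in all 3 rats too. miR-486 was detected on all 3 core and on 0 peri arrays. The summed signal of miR-451-5p and miR-486 was 2889 to 4109 units in core and 1546 to 2408 units in peri, and the part of blood content in the values above was not tested.

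The let-7 family, high in differentiated cells and opposed by the RNA-binding protein Lin28, had no member past the adjusted threshold as normalized here, whereas with median scaling let-7b-5p (1.58, adjusted p = 0.0387 in limma) and let-7d-5p (1.49, adjusted p = 0.0239) passed. let-7b-5p passed too with only the tMCAO rats in the fit (adjusted p = 0.0352 in limma) and on the deposited table with a floor of 50 (0.0272). Of its 20 probes 19 were tested, 15 had means above 0, and 4 were higher in core at an unadjusted p under 0.05 and 0 lower, against 248 of the 532 tested with means above 0, 7.33% higher and 2.44% lower. The 4 were 5p arms that share the seed of the family and differ from a neighbour by 1 or 2 edits, so that their signals may be shared. Shown are let-7b-5p, the member with the smallest p, and let-7i-5p, the only 5p arm with a mean below 0.

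let-7b-5p: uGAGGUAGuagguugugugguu
let-7i-5p: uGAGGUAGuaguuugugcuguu

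let-7b-5p measured 13.62, 13.77 and 13.46 in core and 13.02, 12.82 and 12.49 in peri, a difference of 0.84 (SE 0.21, adjusted p = 0.100 in limma), against 0.25 in sham-operated rats. let-7d-5p, let-7a-5p and let-7c-5p differed by 0.76, 0.74 and 0.67, with adjusted p from 0.149 to 0.414 in limma, and all 4 were higher in core in all 3 rats. let-7i-5p went the other way, with 13.04, 12.92 and 13.44 in core and 13.90, 13.37 and 13.53 in peri, a difference of -0.46 (SE 0.22, adjusted p = 0.517 in limma). With median scaling it was 0.29, so its direction depends on the scaling. Over the 9 tested 5p arms, a subset taken after the values were seen, the median difference was 0.67 in tMCAO, 0.25 in sham-operated and 0.16 in PostC rats.

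**Figure D4:**
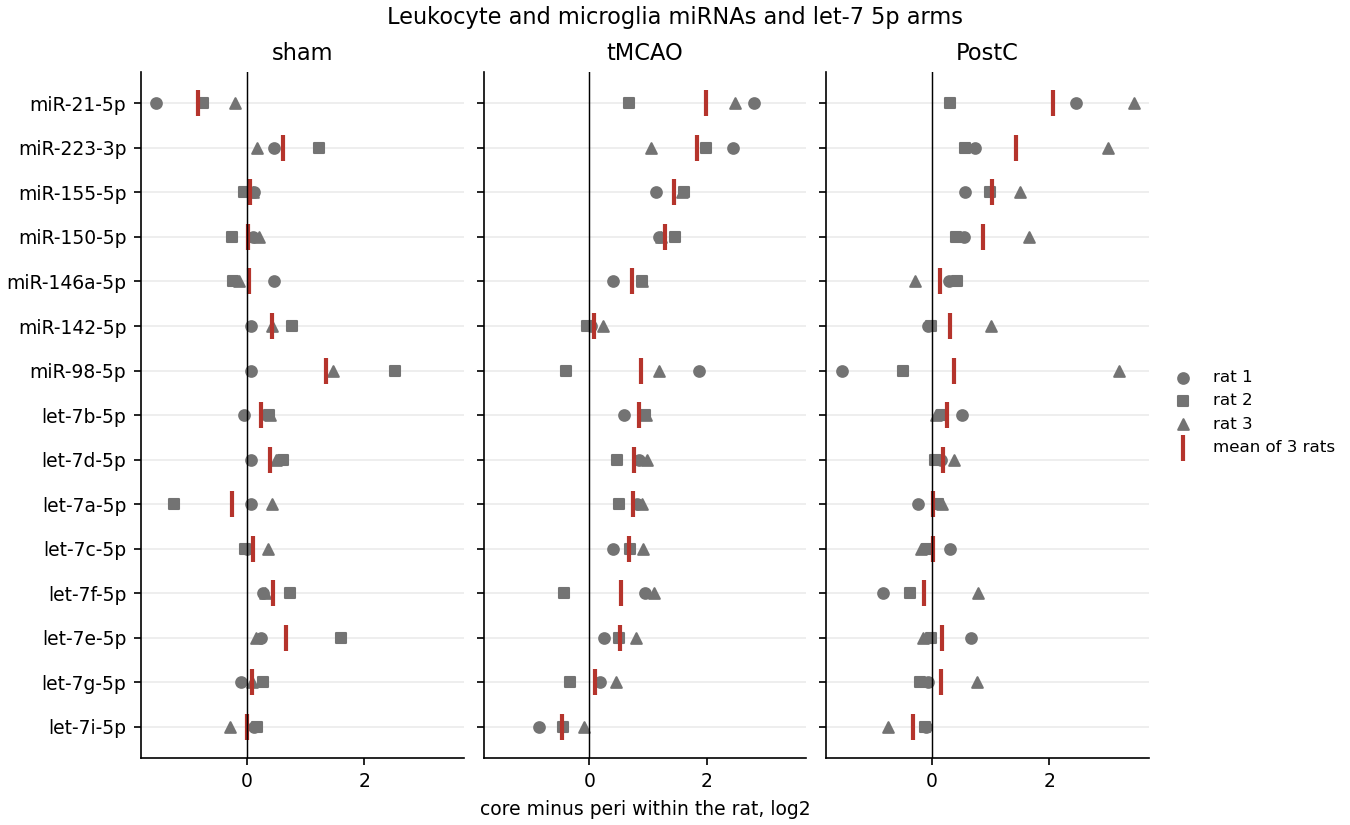
Core minus peri difference within each rat on the log2 scale (x axis) for the 6 tested leukocyte and microglia miRNAs and the 9 let-7 family 5p arms. Grey symbols are single rats and red bars the mean of 3 rats. In tMCAO rats miR-21-5p, miR-223-3p, miR-155-5p, miR-150-5p and miR-146a-5p lie above 0 in all 3 rats, whereas let-7i-5p lies below 0 in all 3.

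Neuron-enriched miRNAs were on balance lower in core, but their direction depended on the scaling. Of 13 tested, 0 passed the adjusted threshold, 3 were lower at an unadjusted p under 0.05 (miR-153-3p and both arms of miR-9a) and 0 higher, against 2.44% and 7.33% of all tested. miR-124-3p differed by -0.38 (adjusted p = 0.533 in limma), by -0.55 with the GC correction, where it passed (adjusted p = 0.0337), and by 0.38 with median scaling. The median difference was -0.36 and 3 of 13 means lay above 0, against 248 of the 532 tested, whereas with median scaling the median was 0.38 and 9 of 13 lay above 0. In sham-operated rats the median was 0.03. The brightest of them, miR-128-3p, measured 14.93, 14.95 and 14.59 in core and 15.43, 14.80 and 14.72 in peri, a difference of -0.16 with a 95% interval of -0.57 to 0.25, and with median scaling it turned above 0, to 0.60. Its core and peri arrays overlapped. miR-137-3p differed by 1.06, -4.08 and -1.51 in rats 1, 2 and 3, with no common direction. The summed signal of the 13 was 101141 to 134634 units in core and 140607 to 170205 units in peri, without overlap.

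The 5p arms of miR-30a, miR-30c and miR-30e ran opposite ways in tMCAO and sham-operated rats. Those of miR-30b and miR-30d, also tested, did not do so in every rat. miR-30c-5p measured 14.10, 13.49 and 13.89 in core and 14.69, 14.37 and 14.49 in peri after tMCAO, a difference of -0.69 (SE 0.17, adjusted p = 0.101 in limma), but of 0.07 with median scaling. miR-30e-5p and miR-30a-5p differed by -0.92 and -0.74, with adjusted p of 0.528 and 0.533 in limma, but with median scaling by -0.19 and -0.0107. miR-30c-5p passed with only the tMCAO rats in the fit (adjusted p = 0.0352 in limma) and without PostC rat 2 (0.0312) or PostC rat 3 (0.0451). In sham-operated rats the 3 were higher in core in every rat, with means of 0.17, 0.92 and 0.73, and the difference between the conditions passed for none of the 3 (adjusted p = 0.352 each in limma). Over the whole array 51 of 532 miRNAs (9.59%) had all 3 tMCAO rats on one side of 0 and all 3 sham-operated rats on the other.

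The differences also followed base composition. Across the 532 miRNAs the Spearman correlation of the difference with the GC content of the target was 0.249 in tMCAO rats, 0.198 in PostC rats and -0.283 in sham-operated rats, and 0.330 in tMCAO rats over the 170 miRNAs detected on all 6 arrays. These are descriptions across miRNAs that share the same arrays. In tMCAO rats the median difference was -0.18 for the 99 miRNAs up to 40% GC and 0.40 for the 13 above 70%. The 7 called miRNAs ranged from 34.8% for miR-155-5p to 83.3%, with a median of 55.0% against 50% over all tested, and all 7 passed again after the GC trend had been removed from each array. The 38 tested miRNAs with at least 4 G in a row had a median difference of 0.07.

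**Figure D5:**
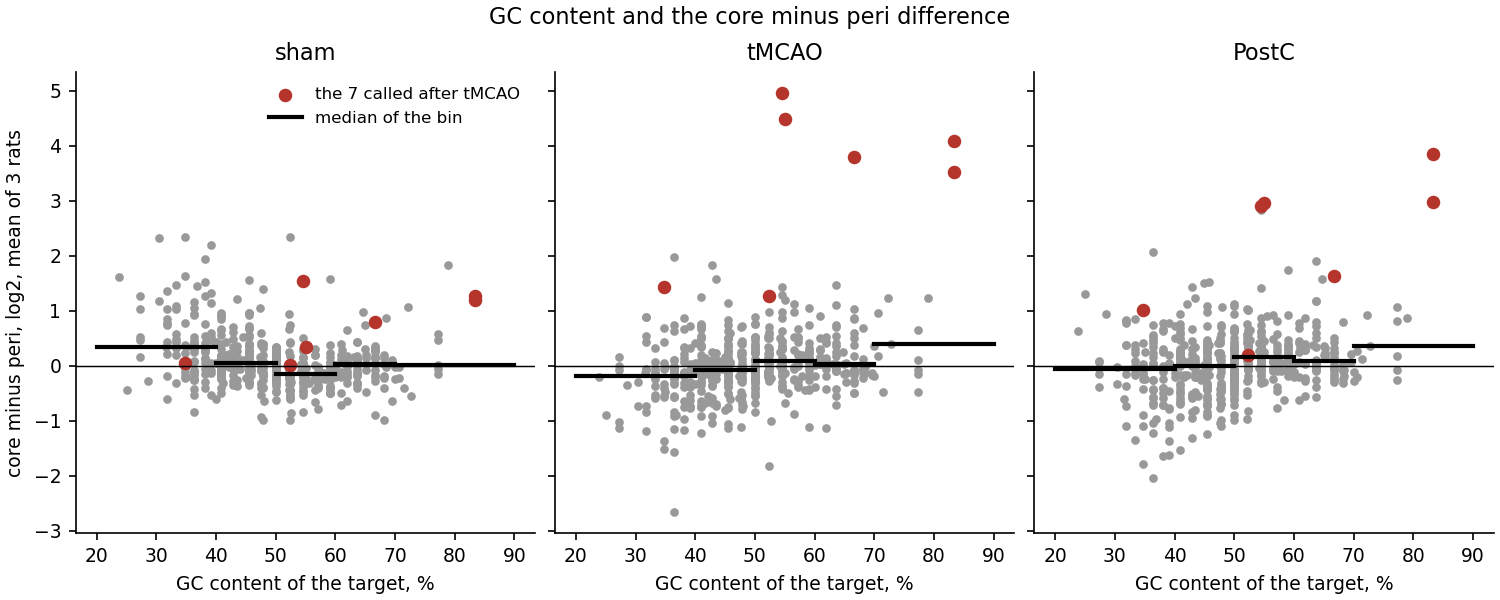
GC content of each miRNA target in percent (x axis) against the core minus peri difference on the log2 scale, averaged over 3 rats (y axis), in sham, tMCAO and PostC rats. Black lines are medians of bins of GC content and red points the 7 miRNAs called after tMCAO, 4 of which lie between 34.8% and 55.0% and 3 above 60%.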

How the data were processed

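Total RNA of 18 brain samples was hybridised, 1 sample per array, to Cy5 single-colour miRNA arrays. Spot values as the authors deposited them are median pixel intensities without subtraction of background or normalization. A further deposited table holds linear intensities after background subtraction and LOWESS normalization. No columns were left unmapped. Here background was corrected on all 3968 spots with normexp (offset 50), cyclic loess was run on the log2 values of the miRNA spots across 18 arrays, and the 4 spots of a probe were averaged. Probes detected on at least 3 of 18 arrays were tested, 532 of 761.

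The core minus peri difference of each rat was fitted with limma 3.58.1 in R 4.3.3 (lmFit, eBayes with a trend), with a mean per condition and 1 spread shared by all 9 rats, and p-values were Benjamini-Hochberg adjusted over all 532 at 0.05. The fit was tested on simulated data. Pairing comes from the rat number in the titles. Within tMCAO rats 1, 2 and 3 the deviations of core and peri from their group means correlated at -0.14, -0.15 and 0.49. In PostC rats they correlated at -0.40, -0.36 and -0.51 and in sham-operated rats at 0.16, 0.49 and 0.30. The consensus correlation of the 2 arrays of a rat was -0.04. With 3 rats a paired exact permutation test of a single miRNA cannot reach 0.05, so single miRNAs rest on limma. Precision is limited by the number of arrays.

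The members and lists were chosen with earlier results of these data known. Named miRNAs were those past the adjusted threshold with 1 sign in all 3 rats (up to 10 per direction), filled up to 8 where under 5 passed by the largest with unadjusted p under 0.05, 1 sign in all 3 rats and detection on 2 of 3 arrays of the brighter region, the 3 largest differences from sham per direction, the 5 brightest, and members of the lists. Alternatives were other background corrections, scalings, filters, variance models, pairings, the methods' t-test, a GC correction and leaving out each rat. A floor of 50 for the deposited table was added after seeing the data. Positions in the genome are not given, since no genome was used. Figures were drawn with matplotlib 3.10.9 in Python 3.11.15.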

Additional observations from a re-analysis of the deposited data

Results flagged for a closer look

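In 11 of the miRNAs described, all 3 tMCAO rats and all 3 sham-operated rats lay on opposite sides of 0 in their core minus peri difference. Over all tested miRNAs this held for 51 of 532 (9.59%). Among the 11, miR-29c-3p, miR-582-5p and miR-9a-3p had been named by a rule that required 1 sign in all 3 tMCAO rats. The difference between the conditions was tested in limma and passed the adjusted threshold in none of the 11 (adjusted p from 0.226 to 0.401). Lower in core after tMCAO and higher in core in sham-operated rats were miR-29c-3p (difference between conditions -2.62), miR-219a-5p (-2.11), miR-582-5p (-2.06), miR-9a-3p (-1.96), miR-30e-5p (-1.84), miR-30a-5p (-1.47), miR-30c-5p (-0.86) and miR-125b-5p (-0.53). For miR-30c-5p and miR-125b-5p the side of 0 in tMCAO rats depended on the scaling, since with median scaling their core minus peri differences were 0.072 and 0.37, and those of miR-30a-5p and miR-30e-5p shrank to -0.0107 and -0.19. The reverse held for miR-21-5p (2.82), miR-409a-3p (1.52) and miR-434-3p (1.50). Both miR-409a-3p and miR-434-3p belong to the imprinted Dlk1-Dio3 cluster. Apart from miR-219a-5p, detected on 0 of the 6 tMCAO arrays, they were detected on all 3 core arrays of the tMCAO rats, and apart from miR-409a-3p, detected on 2, also on all 3 of their peri arrays. With the GC correction the difference of miR-219a-5p in tMCAO rats was 0.00186.

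The control probes for 5S ribosomal RNA, which no comparison used, were brighter on the 3 tMCAO core arrays than on any of the 6 sham arrays. Their median spot averaged 36226 ± 6133 units on the tMCAO core arrays (SD, n = 3), with 33336, 43270 and 32073 units in rats 1, 2 and 3, and 16694 ± 2830 units on their peri arrays. Sham core arrays had 26337 ± 3185 units and sham peri arrays 25919 ± 5325 units. Of the 6 probes for this RNA, 6, 6 and 5 were brighter in core than in peri in tMCAO rats 1, 2 and 3, and 6, 3 and 0 in sham-operated rats. These are intensities before normalization, and on the same tMCAO arrays the median spike-in control spot had 15372 to 21385 units in core and 17595 to 20774 units in peri.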

How the results depend on the processing

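The 7 calls of the tMCAO rats became 14 with median scaling, 35 when only the 3 tMCAO rats entered the fit (25 higher, 10 lower), 1 among the 170 miRNAs detected on all 6 arrays (miR-6215) and 0 by a paired t-test, which had 57 at an unadjusted p under 0.05. Leaving out 1 rat gave 5 to 17 calls, 12 without tMCAO rat 3 and 17 without PostC rat 3. Under the other settings the count was 5 to 9. With no replicate block it was 8 and with the rat as a random block 8, each with all 7 and miR-150-5p, and in PostC rats both gave 6, with all 4. The methods' t-test gave 5, of which 4 were among the 7, without miR-6215, miR-762 and miR-664-2-5p. The count against sham, 0 in limma, became 1 with quantile normalization and 1 on the deposited table (miR-155-5p in both), 2 on that table with a floor of 50, and 5 with only the rats compared. Leaving out 1 rat gave 5 without PostC rat 3 and 0 for any other rat. The 0 in sham-operated rats was 0 in all alternatives run. The 4 in PostC rats became 2 with background subtraction, 2 on the deposited table, 0 on it with a floor of 50, 0 with the filter for detection on all 6 tMCAO arrays, 0 with only the rats compared, 0 by the methods' t-test and 1, lower in core and none of the 4, by a paired t-test, and leaving out 1 rat gave 1 to 13 (1 without sham rat 1 or 3, 2 without sham rat 2 or tMCAO rat 2, 8 without PostC rat 2 and 13, 6 higher and 7 lower, without PostC rat 3). Cyclic loess over the 6 tMCAO arrays applies to the tMCAO comparison alone.

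No call of the 7 changed direction. Of the miRNAs named without a call, median scaling turned let-7i-5p (0.29), miR-30c-5p (0.072), miR-29a-3p (0.0104), miR-29b-3p (0.10), miR-125b-5p (0.37), miR-664-1-5p (0.0709), miR-128-3p (0.60), miR-26a-5p (0.49), miR-132-3p (0.53), miR-124-3p (0.38) and miR-338-3p (0.27) above 0. Quantile normalization turned miR-128-3p (0.10) and miR-26a-5p (0.0179), background subtraction turned miR-142-5p (-0.29), miR-664-1-5p (0.88) and miR-338-3p (0.34), and the GC correction, fitted with the replicate block, turned miR-219a-5p (0.00186), which gave no value on the deposited table with a floor of 50. Leaving out 1 tMCAO rat gave values on both sides of 0 for miR-142-5p (-0.00816 to 0.13), miR-29b-3p (-0.99 to 0.15), miR-664-1-5p (-0.36 to 0.21), miR-338-3p (-0.55 to 0.17) and miR-128-3p (-0.32 to 0.00804). The cause was not tested. The higher limit of the peri arrays restricts what can be said of miRNAs not well above background there, among them 4 of the 7.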

Other observations

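In the groups that follow no miRNA passed the adjusted threshold between core and peri in tMCAO rats by limma with the shared spread and cyclic loess over 18 arrays. In the imprinted Dlk1-Dio3 cluster, a large set of miRNAs expressed in neurons from 1 locus, 74 of 80 probes were tested, 3 were higher in core at an unadjusted p under 0.05 and 0 lower, against 7.33% and 2.44% of all tested, and the median difference was -0.12 (0.13 with median scaling). Its largest difference was that of miR-494-3p, 1.58 (adjusted p = 0.517 in limma), detected on all 6 arrays, which passed with only the tMCAO rats in the fit (adjusted p = 0.00562) and with cyclic loess over the 6 tMCAO arrays (0.0421). With median scaling miR-409a-3p (1.66, adjusted p = 0.0239 in limma) and miR-434-3p (1.87, adjusted p = 0.0259) passed. miR-434-3p passed too with only the tMCAO rats in the fit (adjusted p = 0.0224 in limma). miR-409a-3p did on the deposited table with a floor of 50 (1.40, adjusted p = 0.0431 in limma). Of the miR-17-92 cluster and its paralogs, which promote proliferation, 16 of 27 were tested, 0 passed an unadjusted p under 0.05 and the median was -0.03. In the miR-181 family 7 of 10 were tested, 1 was lower at an unadjusted p under 0.05 (miR-181a-2-3p, -1.002) and the median was -0.29 (0.09 with median scaling). In the miR-30 family the 11 tested had 1 lower at that level, miR-30c-5p, and a median of -0.18 (0.10 with median scaling).

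The 2 arms of miR-210, the miRNA induced by hypoxia-inducible factors, differed by 0.54 for the 3p arm and -0.71 for the 5p arm (adjusted p = 0.852 and 0.654 in limma), and the 3p arm was detected on 2 core and 0 peri arrays. The 4 arms of the activity-regulated cluster of miR-132 and miR-212 had a median of -0.45 (0.23 with median scaling) and 0 passed an unadjusted p under 0.05. Oligodendrocyte miRNAs, with a median of -0.18 over 3 tested (0.27 with median scaling and 0.34 with background subtraction), had a median of 1.94 in sham-operated rats, where miR-338-3p differed by 2.19 and miR-219a-5p by 1.94, and miR-219a-5p was detected on 0 of the 6 tMCAO arrays. The 4 endothelial and smooth muscle miRNAs had a median of 0.06 (0.80 with median scaling) and 0 passed an unadjusted p under 0.05. Of the 15 miRNAs of the study's heat map, chosen on these arrays and so not independent evidence, 4 lay above 0 and 1 below 0 at an unadjusted p under 0.05, against 7.33% and 2.44% of all tested, with a median of -0.36 (0.34 with median scaling). Among the 5 brightest probes, miR-125b-5p differed by -0.40 (SE 0.12, adjusted p = 0.168 in limma) and miR-26a-5p by -0.28 (SE 0.16, adjusted p = 0.604).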
